A study of Rattus norvegicus with 9 samples.

Results

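The genes described here are 38 rat genes that interferons are known to switch on, chosen by their symbols. All 38 were found among the 22888 genes of the deposited gene table. They were grouped by role into 4 sensors of foreign nucleic acid, 4 transcription factors, 4 genes of the Isg15 system, 13 antiviral effectors, 2 guanylate-binding proteins, 3 chemokines that bind Cxcr3, 4 genes of ADP-ribose and ubiquitin transfer and 4 others. A gene was tested when its value reached 0.5 in at least 3 of the 9 libraries, which 37 members did. Cxcl9 was not tested, having reads in only 2 libraries, and Zbp1 was tested with reads in only 3, none of them sham.

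RNA was sequenced from the brains of male Sprague-Dawley rats in a study of stroke, in which the middle cerebral artery was blocked on 1 side (MCAO). The astaxanthin group (libraries 1, 2 and 3) was given astaxanthin, an antioxidant carotenoid, by gavage at 45 mg/kg for 7 days ahead of the occlusion. The model group (libraries 1, 3 and 4) had the occlusion without astaxanthin, and both groups were sampled 1 day after it. The sham group (libraries 1, 3 and 5) had the operation without the occlusion, and its time of sampling was not given separately. The labels name brain with no region or side, so how much of each sample was infarcted tissue is unknown. They do not say that each library came from its own animal, and the p-values measure only the spread between libraries. The 3 groups gave 3 comparisons, in which the occlusion alone, astaxanthin ahead of it, and both together were set against the group without them.

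Interferons are secreted proteins that warn cells of infection or damage. Type I interferons bind the receptor Ifnar1 and Ifnar2, whose kinases Jak1 and Tyk2 activate transcription factors such as Stat2. Irf9 and Stat2 are parts of a complex that binds interferon-stimulated response elements, while type II interferon acts through the receptor Ifngr1 and Ifngr2 and on gamma-activated sites. In brain, microglia, astrocytes, endothelium and infiltrating leukocytes can all produce these transcripts, and after ischemia nucleic acid released from dying cells is a known trigger of the pathway.

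Between 52268061 and 76311125 reads were recovered per library. Astaxanthin 1 held far more RNA of cerebellar neurons and choroid plexus than the other astaxanthin libraries. Summed over 6 cerebellar markers it had 198743 normalized reads, against 3123 and 5651 in astaxanthin 2 and 3. Over 6 choroid plexus markers it had 191972 and sham 5 had 114877, against 631 to 15678 in the other libraries. Neuronal RNA was abundant in every library, with 56680 to 220759 normalized reads summed over 4 neuronal markers. Model 3 stood apart in oligodendrocyte markers, 3 of which summed to 1381310 normalized reads against 161666 and 347166 in model 1 and 4, and in markers of blood and vessel cells, which are given beside the results they move with. In whole tissue, fewer cells of a type and less RNA per cell cannot be told apart.

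Promoters of 300 bases, 250 before and 50 after the transcription start, were taken from RefSeq (assembly GRCr8, not the build of the deposited tables) for the 30 members the table held. An interferon-stimulated response element was searched on both strands as GAAA, 2 bases of any kind and GAAA. It was present in 18 of the 30 (60.0%), against 3.92% of all 33365 promoters of that length. The longer form that ends in GAAACT, and so contains the first, was present in 10 (33.3%), against 0.279% of all promoters. A gamma-activated site, searched as TTCNNNGAA, was present in 7 (23.3%), against 8.88% of all. Bst2, Oas1a and Parp14 held both kinds of motif. A match is a run of letters and not a site shown to be bound, and no match says only that the letters are not in this window.

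Of the promoters, 5 are printed, because the results turn on their genes: Irf1, which had the smallest p of the members after occlusion; the neighbours Cmpk2, which was called, and Rsad2, which was not; and Gbp2 and Cxcl10, whose values differed widely between libraries of 1 group. Capitals mark the response element (read as TTTC, 2 bases and TTTC where it lies on the other strand), and in Irf1 the match to TTCNNNGAA. Cmpk2 had neither motif.
Irf1, chr10:38417685-38417984, plus strand: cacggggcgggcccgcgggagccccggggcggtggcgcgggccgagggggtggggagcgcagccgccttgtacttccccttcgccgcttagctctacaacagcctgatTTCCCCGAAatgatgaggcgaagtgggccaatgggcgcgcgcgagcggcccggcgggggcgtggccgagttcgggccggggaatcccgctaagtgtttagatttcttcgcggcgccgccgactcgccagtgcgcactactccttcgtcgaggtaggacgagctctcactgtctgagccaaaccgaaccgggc
Cmpk2, chr6:48802600-48802899, plus strand: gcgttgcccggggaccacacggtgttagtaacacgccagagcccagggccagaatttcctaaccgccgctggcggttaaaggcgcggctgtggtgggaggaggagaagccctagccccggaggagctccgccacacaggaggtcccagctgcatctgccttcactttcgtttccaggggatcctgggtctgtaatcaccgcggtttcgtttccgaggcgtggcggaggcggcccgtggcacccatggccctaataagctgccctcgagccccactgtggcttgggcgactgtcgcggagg
Rsad2, chr6:48788071-48788370, minus strand: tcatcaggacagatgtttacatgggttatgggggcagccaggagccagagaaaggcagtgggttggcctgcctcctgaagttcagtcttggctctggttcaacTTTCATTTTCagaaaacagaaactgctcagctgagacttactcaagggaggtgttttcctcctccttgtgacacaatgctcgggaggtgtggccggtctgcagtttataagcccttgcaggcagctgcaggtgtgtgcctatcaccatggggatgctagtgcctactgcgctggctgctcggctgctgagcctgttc
Gbp2, chr2:234005477-234005776, plus strand: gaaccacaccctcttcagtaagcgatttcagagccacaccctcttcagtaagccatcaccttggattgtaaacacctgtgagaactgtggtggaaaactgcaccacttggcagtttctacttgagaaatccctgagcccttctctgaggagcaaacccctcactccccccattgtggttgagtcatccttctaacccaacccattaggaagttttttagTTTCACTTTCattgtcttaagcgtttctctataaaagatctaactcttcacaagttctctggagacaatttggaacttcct
Cxcl10, chr14:15988816-15989115, plus strand: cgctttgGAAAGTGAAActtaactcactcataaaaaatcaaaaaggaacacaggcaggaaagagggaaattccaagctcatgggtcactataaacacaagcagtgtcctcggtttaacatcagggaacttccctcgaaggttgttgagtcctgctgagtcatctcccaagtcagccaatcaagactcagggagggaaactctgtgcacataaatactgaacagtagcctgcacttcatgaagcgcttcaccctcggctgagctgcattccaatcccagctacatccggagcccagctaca
The match lay 31 to 22 bases before the start in Gbp2, 147 to 138 before it in Rsad2 and 243 to 234 before it in Cxcl10. Most matches lay within 100 bases of the start, and those of Dtx3l and 1 of the 2 in Ifi44 lay past it.

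**Figure D1:**
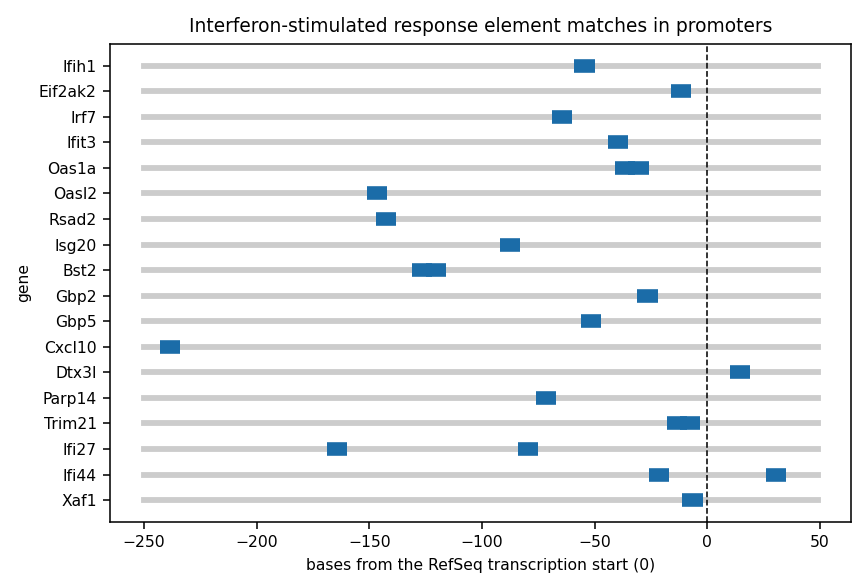
Position of each response element match (blue) in the 18 member promoters that hold the motif, against distance in bases from the RefSeq transcription start (dashed line at 0); gray bars are the 300-base windows. Ifi27 and Ifi44 each had 2 separate matches, and those of Oas1a, Bst2 and Trim21 overlapped.

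Occlusion was accompanied by higher interferon-stimulated transcripts in most members, but few passed the test. In the model group 34 of the 37 tested members had a mean log2 value above that of sham, against 50.9% of all genes. The median log2 fold change (model over sham) of the members was 1.08, against 0.02 over all genes tested. Irf1 and Trim25 rose and Cmpk2 fell at an adjusted p under 0.05, so 3 of 37 were called, against 4.77% of all genes (3.45% higher and 1.32% lower). An unadjusted p under 0.05 was found in 22 members (59.5%), against 23.8% of all genes. In 16 members (43.2%) every model library lay above every sham library, against 19.0% of all genes, and in 1, Cmpk2, every model library lay below, against 16.6%. DESeq2 on recovered reads called 16 of the 37 members (43.2%), against 16.6% of all genes. EdgeR called 2 of the 37, Irf1 and Trim25, against 4.06%. Without astaxanthin 1 and model 3 together, limma called 7 members, against 15.6% of all genes: Irf1, Irf9, Herc6, Trim25, Cmpk2, Isg20 and Gbp2. An exact permutation test of 3 against 3 libraries has 0.1 as its smallest two-sided p, and none is given for single genes.

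The members varied more between model libraries than the median gene did. Their median range within a group, on the log2 scale, was 1.10 in astaxanthin, 1.72 in model and 0.49 in sham, against 0.81, 0.86 and 0.43 over all genes. Model 3 was the highest of all 9 libraries in 28 of 37 members, against 23.8% of all genes. Model 1 was the lowest of the 3 model libraries in 31 of 37, against 28.0% of all genes. Astaxanthin 3 was the highest of the 3 astaxanthin libraries in 31 of 37, against 32.3% of all genes. Astaxanthin 1, the library with the most cerebellar and choroid plexus RNA, was the lowest of the 3 in 25 of 37, against 38.7% of all genes, and the part of that RNA was not tested. The members' median log2 distance from the sham mean was 0.14, 0.31 and 0.83 in astaxanthin 1, 2 and 3, and 0.34, 1.97 and 1.03 in model 1, 3 and 4. Astaxanthin 3 lay above model 1 and a little below model 4. Sham 5 was the highest sham library in 21 of 37 members, against 35.5% of all genes, with Mx1 and Oasl the farthest above the sham mean.

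**Figure D2:**
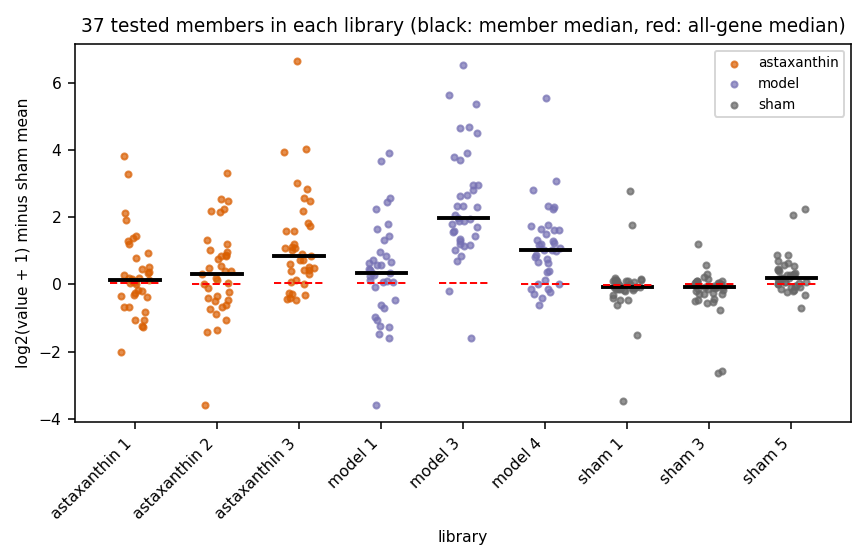
Difference of log2(value + 1) from the sham mean for each of the 37 tested members (points) in each library; black lines are the members' medians and red dashed lines the medians over all genes. The member median was 1.97 in model 3 and 0.34 in model 1, while the all-gene medians lay near 0.

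**Figure D3:**
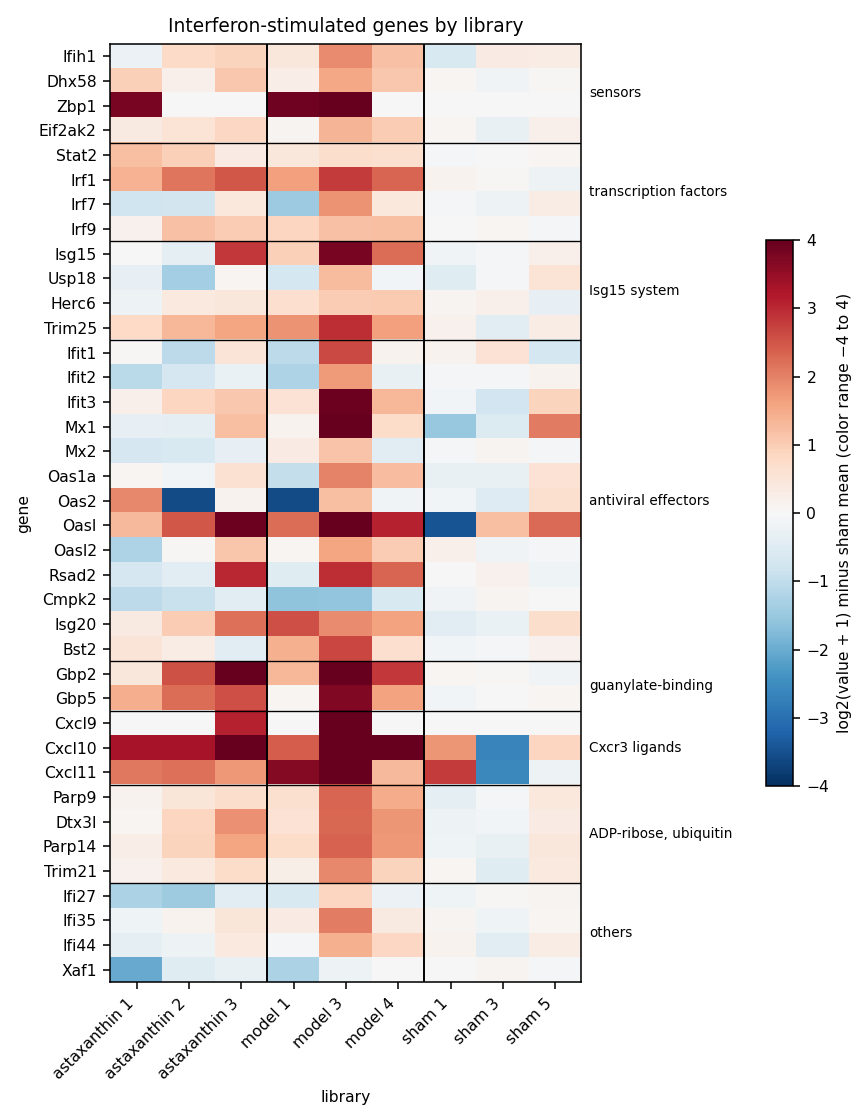
Difference of log2(value + 1) from the sham mean (color, from −4 to 4; larger differences take the end colors) for all 38 members (down, by role) in the 9 libraries (across). Cmpk2 was the member below sham in every model library, and Irf1, Trim25, Gbp2 and Cxcl10 were among those above sham in every model and astaxanthin library.

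Model 3 also held the most RNA of several blood and vessel cell types. Summed reads of 5 neutrophil markers were 403, 984 and 625 in astaxanthin 1, 2 and 3, 786, 14993 and 702 in model 1, 3 and 4, and 236, 167 and 189 in sham 1, 3 and 5. Over 5 tested endothelial markers the sums were 14863 to 20879 in astaxanthin, 21010, 78441 and 19643 in model 1, 3 and 4, and 8326 to 9776 in sham. Those of 6 monocyte and macrophage markers were 3839 to 4860 in astaxanthin, 7309, 22755 and 4083 in model 1, 3 and 4, and 2110 to 3207 in sham. Of the lymphocyte markers, 7 of the 9 listed were in the table and summed to 44.2 to 174 in astaxanthin, 62.4, 403 and 78.8 in model 1, 3 and 4, and 22.8 to 38.8 in sham. The 4 neuronal markers ran the other way, with 56680 in model 3 against 177264 and 164713 in model 1 and 4. Called higher after occlusion were 1 of 5 neutrophil (Cxcr2), 1 of 7 lymphocyte (Cd8a) and 1 of 5 endothelial markers (Kdr). Of the monocyte and macrophage markers, 0 of 6 were called. The share of all genes called higher was 3.45%. Every model library lay above every sham library in each neutrophil and endothelial marker and in Cd8a, Cd163, Cd68 and Lyz2, against 19.0% of all genes. The groups overlapped in Ccr2, Ms4a7, Mrc1 and the other lymphocyte markers. Cxcr2, Cd3d, Cd8a and Klrd1 had no reads in any sham library. In model 4 and astaxanthin 3 the neutrophil, endothelial, and monocyte and macrophage sums lay within the range of astaxanthin 1, astaxanthin 2 and model 1. The lymphocyte sum lay within that range in model 4 (78.8) and below it in astaxanthin 3 (44.2). The part of these cell types in the members' levels was not tested. The 5 listed microglial markers summed to 2378 to 2437 in astaxanthin, 3502 to 3707 in model and 5221 to 6052 in sham, and P2ry12, Tmem119 and Gpr34, 3 of the 4 tested, fell in model against sham. The 4 astrocyte markers summed to 89651 to 233993 in astaxanthin, 148775 to 256025 in model and 35880 to 111576 in sham, and Gfap, 1 of the 4, rose in model against sham. Without model 3 the median member fold change of model over sham was 0.75, with 27 of 36 tested members above 0, and 2 members, Irf1 and Trim25, were called, against 3.12% of all genes.

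Among the sensors of foreign nucleic acid, none passed the test after occlusion. Eif2ak2 had 1516, 1730.3 and 2113 normalized reads in astaxanthin 1, 2 and 3, 1268, 3036 and 2383 in model 1, 3 and 4, and 1257, 976 and 1362 in sham 1, 3 and 5. Eif2ak2 encodes the RNA-dependent kinase that halts translation. Model 1 lay within the sham range and the other model libraries lay above it, with a log2 fold change of 0.82 ± 0.32 (SE; limma adjusted p = 0.165). The RNA helicases Ifih1, which detects long double-stranded RNA, and Dhx58, which modulates it, averaged 661 ± 319 and 406 ± 166 in model, against 282 ± 90.2 and 194 ± 15.6 in sham (SD, n = 3 each). In both genes all model libraries lay above all sham libraries. Zbp1 had 13.0, 0 and 0 normalized reads in astaxanthin 1, 2 and 3, 14.0, 21.6 and 0 in model 1, 3 and 4, and 0 in every sham library. Zbp1, a sensor of left-handed nucleic acid that can trigger necroptosis, was thus detected at a low level in astaxanthin 1, model 1 and model 3 only. Set against the floor that a count of 0 allows (3 reads in each library), its model mean was at least 3.37-fold higher than in sham.

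Of the transcription factors, Irf1 rose and the other 3 did not pass the test. Irf1 had 1001, 1707 and 2139.7 normalized reads in astaxanthin 1, 2 and 3, 1199, 2686 and 1909 in model 1, 3 and 4, and 424, 397 and 334 in sham 1, 3 and 5. Irf1 activates genes downstream of both interferon types and of other inflammatory signals. All 6 libraries of the occluded groups lay above all sham libraries, with model 1 and astaxanthin 1 the lowest of their groups. The log2 fold change of model over sham was 2.25 ± 0.36 (SE; limma adjusted p = 0.0176), and that of astaxanthin over sham was 2.00 ± 0.36 (SE; limma adjusted p = 0.0877). The rise in model was called in 6 of the 9 fits that left out 1 library, being lost without sham 1, sham 3 or sham 5. Irf9 had 356, 721 and 641 normalized reads in astaxanthin 1, 2 and 3, 572, 719 and 734 in model 1, 3 and 4, and 316, 332 and 300.2 in sham 1, 3 and 5. Irf9, the DNA-binding subunit of the complex that holds Stat2, lay above sham in all 6 libraries of the occluded groups, with a log2 fold change of model over sham of 1.08 ± 0.30 (SE; limma adjusted p = 0.0743). Stat2 had 5118, 4309 and 2756 normalized reads in astaxanthin 1, 2 and 3, 3006, 3594 and 3446 in model 1, 3 and 4, and 2100.4, 2206 and 2350.0 in sham 1, 3 and 5. Stat2, its partner, lay above sham in all 6 as well and was higher in astaxanthin 1 and 2 than in any model library. The fold changes were small, 0.59 ± 0.23 (SE; limma adjusted p = 0.159) for model over sham and 0.83 ± 0.23 (SE; limma adjusted p = 0.211) for astaxanthin over sham. Irf7 had 189, 200.5 and 444 normalized reads in astaxanthin 1, 2 and 3, 119, 1156 and 441 in model 1, 3 and 4, and 313, 288 and 404 in sham 1, 3 and 5. Irf7, the amplifier of type I interferon production, did not follow Irf1: model 1, astaxanthin 1 and astaxanthin 2 lay below all sham libraries, and model 3 lay far above. Its log2 fold change of model over sham was 0.25 ± 0.74 (SE; limma adjusted p = 0.865).

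In the Isg15 system, Trim25 rose after occlusion. Trim25 had 270.1, 391 and 469 normalized reads in astaxanthin 1, 2 and 3, 550.2, 1227 and 490.0 in model 1, 3 and 4, and 176, 114 and 190.5 in sham 1, 3 and 5. Trim25 is a ubiquitin ligase that acts on the RNA sensor Rig-I. Every model library lay above every astaxanthin and sham library, and every astaxanthin library above every sham library. The log2 fold change of model over sham was 2.14 ± 0.42 (SE; limma adjusted p = 0.0295), and that of astaxanthin over model was -0.91 ± 0.42 (SE; limma adjusted p = 0.567). The call in model held in 4 of the 9 fits without 1 library, and was lost without model 1, astaxanthin 2 or any of the 3 sham libraries. Isg15 had 55.3, 42.8 and 393 normalized reads in astaxanthin 1, 2 and 3, 108, 773 and 262 in model 1, 3 and 4, and 50.0, 51.9 and 63.1 in sham 1, 3 and 5. Isg15 is the ubiquitin-like protein that the system attaches to others. All model libraries exceeded sham, model 1 by the least. Astaxanthin 1 and 2 lay near sham and astaxanthin 3 lay above model 4. The log2 fold change of Isg15 in model over sham was 2.33 ± 0.93 (SE; limma adjusted p = 0.173). Herc6 had 582, 883 and 905 normalized reads in astaxanthin 1, 2 and 3, 1063, 1353 and 1366 in model 1, 3 and 4, and 722, 771 and 533 in sham 1, 3 and 5. Herc6, which acts as the Isg15 ligase in mouse, was higher in every model library than in any sham library, with a log2 fold change of 0.91 ± 0.25 (SE; limma adjusted p = 0.0751). Usp18, which removes Isg15 and dampens the receptor, averaged 82.5 ± 37.4 in astaxanthin, 148 ± 109.6 in model and 117 ± 42.7 in sham (SD, n = 3 each). Its model 1 and 4 libraries lay within or below the sham range.

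**Figure D4:**
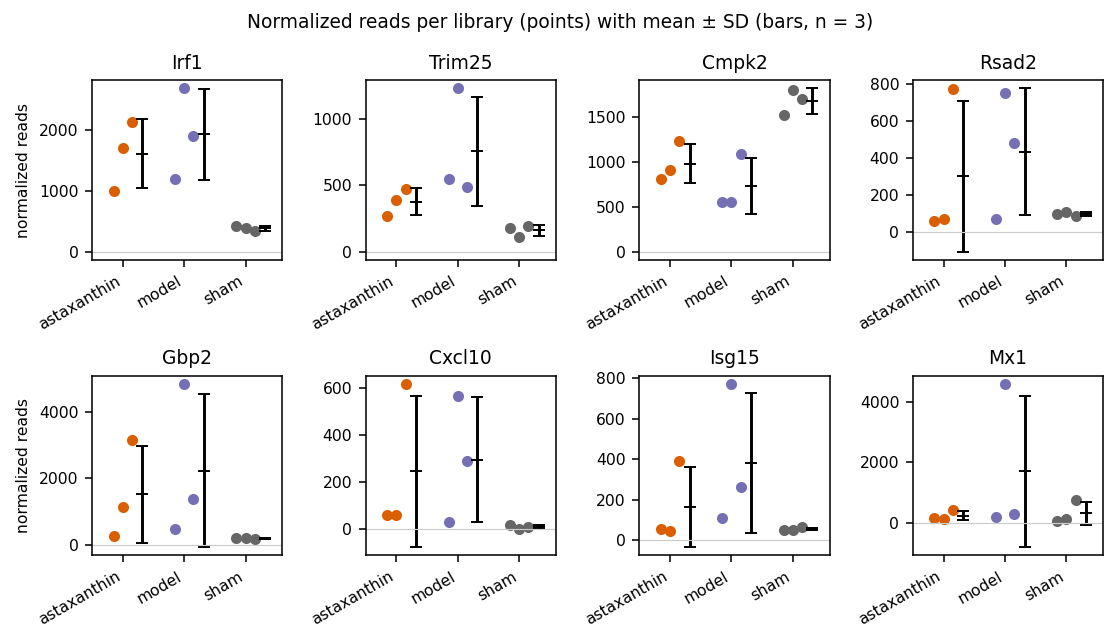
Normalized reads per library (points; the 3 libraries of each group left to right in the order of their numbers) with the mean ± SD (bars, n = 3) of 8 members in astaxanthin, model and sham. Irf1 and Trim25 were above sham in every model library and Cmpk2 below it. Rsad2, Gbp2, Cxcl10 and Isg15 were high in model 3, model 4 and astaxanthin 3, and Gbp2 also in astaxanthin 2. Mx1 was high in model 3.

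Of the 13 antiviral effectors 2, Oas2 and Cmpk2, had a negative log2 fold change of model over sham, and the member called among them, Cmpk2, fell. Cmpk2 had 810.2, 909 and 1234 normalized reads in astaxanthin 1, 2 and 3, 554, 557 and 1094 in model 1, 3 and 4, and 1530.0, 1809 and 1704 in sham 1, 3 and 5. Cmpk2 is a mitochondrial nucleotide kinase. Every library of the occluded groups lay below every sham library, and model 1 and 3 were nearly equal. Its log2 fold change of model over sham was -1.27 ± 0.30 (SE; limma adjusted p = 0.0487), close to the threshold. The call held in 2 of the 9 fits without 1 library, and was lost without model 1, model 3, astaxanthin 2, astaxanthin 3 or any sham library. It was also lost with edgeR, with no filter on low values and with only the 6 libraries compared. Its log2 fold change of astaxanthin over sham was -0.79 ± 0.30 (SE; limma adjusted p = 0.344).

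Rsad2 (viperin), which makes a chain-terminating nucleotide, is the neighbour of Cmpk2 on chromosome 6, 14096 bases away in the deposited annotation and on the opposite strand in RefSeq. Rsad2 had 59.7, 69.1 and 774 normalized reads in astaxanthin 1, 2 and 3, 68.9, 751 and 483 in model 1, 3 and 4, and 96.3, 107 and 84.9 in sham 1, 3 and 5. Model 3, model 4 and astaxanthin 3 lay far above sham, and the other 3 libraries of the occluded groups lay below all sham libraries. The log2 fold change of model over sham was 1.60 ± 1.12 (SE; limma adjusted p = 0.417). Cmpk2 was thus lowest in model 1 and 3, which differed widely in Rsad2.

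Mx1, a dynamin-like GTPase that blocks viral replication, was dominated by a single library. Mx1 had 142, 134 and 406 normalized reads in astaxanthin 1, 2 and 3, 195, 4585 and 297 in model 1, 3 and 4, and 61.3, 119.8 and 744 in sham 1, 3 and 5. Model 3 was several times higher than any other library, and sham 5 was higher than every astaxanthin library and than model 1 and 4. The log2 fold change of model over sham was 1.86 ± 1.28 (SE; limma adjusted p = 0.412). Its neighbour Mx2 averaged 606 ± 84.2 in astaxanthin, 1233 ± 649 in model and 876 ± 60.0 in sham (SD, n = 3 each), and every astaxanthin library lay below every sham library. Reads of Mx1 and Mx2, of the Ifit genes, of the Oas genes and of the guanylate-binding proteins may be divided between near-identical copies, so their single values are uncertain.

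The Ifit proteins bind viral RNA. Ifit3 had 228, 359 and 422 normalized reads in astaxanthin 1, 2 and 3, 294, 3013 and 502 in model 1, 3 and 4, and 183, 116 and 369 in sham 1, 3 and 5. In Ifit3 model 3 was the highest, and model 1 lay within the sham range. Ifit1 and Ifit2 averaged 455 ± 550.0 and 769 ± 787 in model, against 187 ± 77.8 and 514 ± 48.9 in sham (SD, n = 3 each). Of the model libraries model 3 alone, at 1087 and 1670.2, lay above all sham libraries. Model 1 lay below all sham libraries in both genes, as did model 4 in Ifit2. Model over sham gave a log2 fold change of 0.57 ± 0.88 (SE; limma adjusted p = 0.736) for Ifit1 and 0.06 ± 0.64 (SE; limma adjusted p = 0.966) for Ifit2. Every astaxanthin library of Ifit2 lay below every sham library. The Oas proteins make a messenger that activates an RNA-degrading enzyme, and their relatives Oasl and Oasl2 act in RNA sensing. Oas1a and Oasl2 averaged 177 ± 134 and 589 ± 280.2 in model, against 80.8 ± 31.3 and 293 ± 37.8 in sham (SD, n = 3 each). Oas2 stayed at or below 44.5 normalized reads in every library. Oasl ranged over 26.0 to 167 in astaxanthin, 51.2 to 458 in model and 0 to 51.8 in sham. The log2 fold change of Oasl in model over sham was 3.56 ± 1.50 (SE; limma adjusted p = 0.194), a value that depends on the pseudocount. Isg20 had 162, 254 and 576 normalized reads in astaxanthin 1, 2 and 3, 746, 465 and 389 in model 1, 3 and 4, and 91.3, 105 and 205 in sham 1, 3 and 5. Isg20, an exonuclease that degrades RNA, was higher in every model library than in any sham library, with model 1 the highest, and had a log2 fold change of 2.02 ± 0.53 (SE; limma adjusted p = 0.0657). Bst2 had 569, 491 and 289 normalized reads in astaxanthin 1, 2 and 3, 1065, 2522 and 625 in model 1, 3 and 4, and 370.3, 373 and 449 in sham 1, 3 and 5. Bst2 (tetherin), which holds budding virus at the cell surface, was higher in every model library than in any other, with a log2 fold change of 1.58 ± 0.48 (SE; limma adjusted p = 0.0983) for model over sham. Astaxanthin 3 was lower in Bst2 than any other library, although it was the highest astaxanthin library for most members.

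The guanylate-binding proteins, GTPases induced chiefly by type II interferon, had large fold changes but a wide spread. Gbp2 had 267, 1125 and 3149.8 normalized reads in astaxanthin 1, 2 and 3, 480.4, 4860.4 and 1368 in model 1, 3 and 4, and 203, 200.1 and 176 in sham 1, 3 and 5. Gbp2 lay above all sham libraries in all 6 libraries of the occluded groups, by little in astaxanthin 1 and by far in model 3 and astaxanthin 3. The log2 fold change was 2.93 ± 0.98 (SE; limma adjusted p = 0.119) for model over sham and 2.34 ± 0.98 (SE; limma adjusted p = 0.386) for astaxanthin over sham. Gbp5 had 219, 383 and 483 normalized reads in astaxanthin 1, 2 and 3, 84.7, 1045 and 248 in model 1, 3 and 4, and 73.8, 81.5 and 84.9 in sham 1, 3 and 5. Gbp5, which promotes inflammasome assembly, lay in the sham range in model 1 and above sham in the other 5 libraries of the occluded groups, with a log2 fold change of 2.09 ± 0.79 (SE; limma adjusted p = 0.345) for astaxanthin over sham. Without astaxanthin 1 and model 3 together, Gbp2 was called in model over sham, and 5 members, among them Gbp2 and Gbp5, in astaxanthin over sham, against 4.09% of all genes.

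The ligands of Cxcr3, which draw activated T cells and natural killer cells, were low in sham, and Cxcl10 had the largest fold change of the members. Cxcl10 had 59.7, 60.3 and 618 normalized reads in astaxanthin 1, 2 and 3, 32.6, 565 and 291 in model 1, 3 and 4, and 20.0, 0 and 10.4 in sham 1, 3 and 5. Cxcl10 lay above sham in all 6 libraries of the occluded groups, and model 3, model 4 and astaxanthin 3 held most of it. Its log2 fold change was 4.83 ± 1.50 (SE; limma adjusted p = 0.101) for model over sham and 4.41 ± 1.50 (SE; limma adjusted p = 0.306) for astaxanthin over sham, values that depend on the pseudocount because sham was near 0. Cxcl11 had 24.9, 26.3 and 18.8 normalized reads in astaxanthin 1, 2 and 3, 74.5, 293 and 13.6 in model 1, 3 and 4, and 40.0, 0 and 4.14 in sham 1, 3 and 5. Cxcl11 followed it only in part: model 1 and 3 lay above all sham libraries, but model 4 and every astaxanthin library lay below sham 1. The 3 groups overlapped. The log2 fold change of Cxcl11 in model over sham was 3.53 ± 1.43 (SE; limma adjusted p = 0.179), a value that also depends on the pseudocount. Cxcl9 had 0, 0 and 7.36 normalized reads in astaxanthin 1, 2 and 3, 0, 31.9 and 0 in model 1, 3 and 4, and 0 in every sham library. Cxcl9 was detected in astaxanthin 3 and model 3 only. Against the floor of 3 reads in each library, its model mean was at least 3.02-fold higher than in sham, and its astaxanthin mean lay below the floor.

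Parp9, Dtx3l and Parp14, which lie together on chromosome 11 and join ADP-ribose transfer to ubiquitin transfer, were higher in every model library than in any sham library. Parp9 had 537, 678 and 801 normalized reads in astaxanthin 1, 2 and 3, 761, 2440.0 and 1375 in model 1, 3 and 4, and 372, 477 and 654 in sham 1, 3 and 5. Parp14 had 561, 859 and 1386 normalized reads in astaxanthin 1, 2 and 3, 773, 2367 and 1548 in model 1, 3 and 4, and 413, 382 and 637 in sham 1, 3 and 5. In both, model 1 was the lowest and model 3 the highest of the model libraries, with model over sham at 1.48 ± 0.42 (SE; limma adjusted p = 0.0791) in Parp9 and 1.60 ± 0.47 (SE; limma adjusted p = 0.0864) in Parp14 on the log2 scale. Dtx3l, the ubiquitin ligase partner of Parp9, had a log2 fold change of 1.55 ± 0.54 (SE; limma adjusted p = 0.129). Parp9 and Dtx3l overlap by 530 bases in the annotation, and since the use of strand in counting was not stated, reads of the overlap cannot be told apart. Trim21, an antibody receptor inside the cell, averaged 394 ± 77.4 in astaxanthin, 655 ± 394 in model and 296 ± 88.4 in sham (SD, n = 3 each), with model 1 inside the sham range.

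The remaining 4 members gave no call. Ifi27 had 1506, 1367 and 2734 normalized reads in astaxanthin 1, 2 and 3, 2382, 6599.5 and 3108 in model 1, 3 and 4, and 3225, 3798 and 3941 in sham 1, 3 and 5. Ifi27, a mitochondrial membrane protein, had nearly the same mean in model and sham, with model 3 high and model 1 and 4 below all sham libraries. Every astaxanthin library lay below every sham library, with a log2 fold change of astaxanthin over sham of -1.03 ± 0.39 (SE; limma adjusted p = 0.348). Ifi35 had 189.8, 236 and 300.2 normalized reads in astaxanthin 1, 2 and 3, 270.0, 889 and 277 in model 1, 3 and 4, and 230.2, 189 and 225 in sham 1, 3 and 5. Ifi35, a leucine zipper protein, was higher in every model library than in any sham library, with a log2 fold change of 0.92 ± 0.47 (SE; limma adjusted p = 0.27), and model 1 and 4 exceeded sham by little. Ifi44 averaged 243 ± 73.5 in astaxanthin, 448 ± 218 in model and 253 ± 63.9 in sham, and Xaf1, a promoter of apoptosis, 442 ± 226, 571 ± 234 and 748 ± 46.6 in the same groups (SD, n = 3 each). Every astaxanthin library of Xaf1 lay below every sham library.

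Levels of different genes can be compared per kilobase of exon. In normalized reads per kilobase Ifi27 led in all groups, with 2220.3 ± 916 in astaxanthin, 4869 ± 2784 in model and 4349.8 ± 468 in sham (SD, n = 3 each). Next came Stat2 (975 ± 283) and Irf1 (629 ± 228) in astaxanthin, Bst2 (1786 ± 1286) and Gbp2 (867 ± 906) in model, and Stat2 (530.5 ± 35.4) and Bst2 (498 ± 58.6) in sham (SD, n = 3 each). In model, each neighbour in the order from Bst2 through Gbp2 and Stat2 to Irf1 differed from the next by less than the larger of their SDs, as Stat2 and Bst2 did in sham. Among the 38 members Irf1 took rank 5 in model and rank 12 in sham, Gbp2 rank 3 in model and rank 22 in sham, and Cmpk2 rank 24 in model and rank 4 in sham. Zbp1, Oas2 and Cxcl9 were at the bottom of the order in astaxanthin and model.

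Astaxanthin against model gave no call in any gene by limma, and no member passed. Of all 17770 genes tested 0 were called (0%), 1579 had an unadjusted p under 0.05 (8.89%), DESeq2 on recovered reads called 204 (1.15%) and edgeR 0; of the members, 5 had an unadjusted p under 0.05 and DESeq2 and edgeR called 0. In 33 of the 37 members the astaxanthin mean was the lower on the log2 scale, against 50.9% of all genes, and the median log2 fold change of astaxanthin over model was -0.70, against -0.01 over all genes. The 4 members with a positive value were Stat2, Oas2, Cmpk2 and Gbp5. In 3 members (8.11%), Herc6, Trim25 and Bst2, every astaxanthin library lay below every model library, against 7.24% of all genes, and in none above, against 5.72%. The log2 fold change was -1.46 ± 0.48 (SE; limma adjusted p = 0.548) for Bst2 and -0.69 ± 0.25 (SE; limma adjusted p = 0.548) for Herc6. The median stayed below 0 without any 1 library. Without model 3 it was -0.24, with 23 of 36 tested members below 0, without astaxanthin 1 it was -0.44, and without model 1 it was -1.13. Without model 3 and astaxanthin 1 it was 0.025, with 15 below 0 and 21 above.

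Astaxanthin against sham gave 0 called members of 37, against 0.276% of all genes. DESeq2 called 4 of the 37, Stat2, Irf1, Gbp2 and Cxcl10, against 4.40% of all genes, and edgeR called 0. In 9 members the unadjusted p was under 0.05, against 12.3% of all genes. In 26 of 37 members the astaxanthin mean was the higher on the log2 scale, against 53.2% of all genes. The median log2 fold change was 0.47, against 0.04 over all genes. It was 0.44 with Zbp1, which had no reads in sham, at its lower bound. In 9 members (24.3%) every astaxanthin library lay above every sham library, against 13.0% of all genes. These were the sensors Dhx58 and Eif2ak2, the factors Stat2, Irf1 and Irf9, Trim25, Gbp2, Gbp5 and Cxcl10. In 5 (13.5%), Ifit2, Mx2, Cmpk2, Ifi27 and Xaf1, every astaxanthin library lay below every sham library, against 11.4% of all genes. Each pair of the 3 comparisons shares a group of libraries, so the 3 sets of values are not independent.

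**Figure D5:**
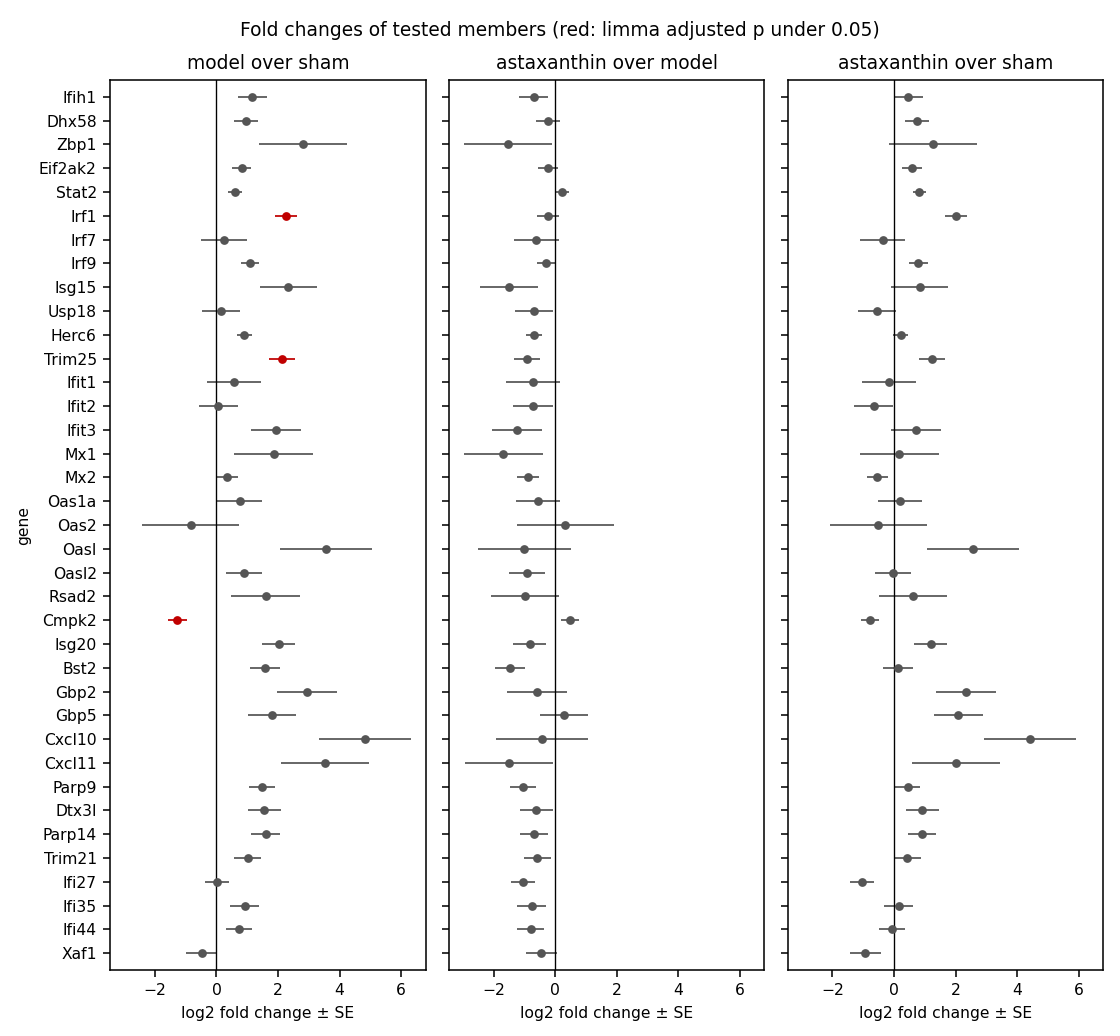
Log2 fold change ± SE from limma for the 37 tested members in model over sham, astaxanthin over model and astaxanthin over sham; red marks an adjusted p under 0.05. Irf1 (2.25) and Trim25 (2.14) are red above 0 and Cmpk2 (-1.27) red below 0 in model over sham, and no gene is red in the other panels.

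Members with and without the response element in their promoter had fold changes of model over sham of similar size. The median was 1.36 over the 18 members with the element and 1.48 over the 11 tested members without it, and it was 0.46 over the 8 members with no promoter in the table. The 3 called members, Irf1, Trim25 and Cmpk2, were all among those without it; Irf1 held the gamma-activated site printed above. No test was made of this difference.

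The interferons themselves were scarcely detected. Ifng and Ifna1 had no reads in any of the 9 libraries, which allows up to 3 reads in each, and Ifnb1 had 1.86 normalized reads in model 1 and none elsewhere. Of the type I receptor, Ifnar1 averaged 7413 ± 1644 in model and 5424 ± 311 in sham (SD, n = 3 each). It was not called in model against sham (limma adjusted p = 0.186). Ifnar2 averaged 3619 ± 2299 in model and 1288 ± 141 in sham (SD, n = 3 each). Ifnar2 lay above sham in every model library, with a log2 fold change of 1.32 ± 0.40 (SE; limma adjusted p = 0.0982). The type II receptor chains Ifngr1 and Ifngr2 were measured at 0.42 ± 0.27 (SE; limma adjusted p = 0.386) for Ifngr1 and 0.40 ± 0.25 (SE; limma adjusted p = 0.367) for Ifngr2 on the same scale.

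Altogether 75 further genes of the pathway were listed, 65 were in the table and 61 were tested. After occlusion 7 of the 61 rose and 0 fell, or 11.5%, set beside 4.77% of all genes. By role these were 0 of 2 tested ligands, 0 of 6 receptors, 1 of 3 Jak and Stat genes, 1 of 13 upstream sensors and their adaptors, 1 of 8 brakes and 4 of 29 further interferon-stimulated genes. None of the 61 was called in astaxanthin against model. Jak2 had 3067, 5485 and 3533 normalized reads in astaxanthin 1, 2 and 3, 9556, 5689 and 6849 in model 1, 3 and 4, and 2543, 2703 and 2299 in sham 1, 3 and 5. Jak2 is a kinase of the type II receptor. Every astaxanthin library lay below every model library and above every sham library, with a log2 fold change of model over sham of 1.52 ± 0.26 (SE; limma adjusted p = 0.022). Jak1 had a log2 fold change of 0.83 ± 0.32 (SE; limma adjusted p = 0.161) and Tyk2 one of 0.03 ± 0.30 (SE; limma adjusted p = 0.968). Ptpn2, a phosphatase that switches off Jak1, rose with a log2 fold change of 1.35 ± 0.22 (SE; limma adjusted p = 0.0176), while Socs1, another brake, had a log2 fold change of 0.79 ± 0.34 (SE; limma adjusted p = 0.199). Irf8, a factor of myeloid cells, rose with a log2 fold change of 2.04 ± 0.46 (SE; limma adjusted p = 0.0453), and Tlr3, the endosomal sensor of double-stranded RNA, had one of 0.36 ± 0.68 (SE; limma adjusted p = 0.78). The Irf8 call held in 1 of the 9 fits without 1 library, that without astaxanthin 1. Those of Jak2 and Ptpn2 held in 5 of 9 each, and were lost without model 1 or any sham library.

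The 4 further interferon-stimulated genes that rose had larger fold changes than Irf1. Ifitm3 had 1176, 2060.2 and 2374 normalized reads in astaxanthin 1, 2 and 3, 3055, 16517 and 2861 in model 1, 3 and 4, and 462, 361 and 413 in sham 1, 3 and 5. Ifitm3, which keeps viruses from fusing with the endosome membrane, rose with a log2 fold change of 3.68 ± 0.62 (SE; limma adjusted p = 0.0214), and its relative Ifitm1 with one of 4.35 ± 0.67 (SE; limma adjusted p = 0.017). All astaxanthin libraries of Ifitm3 lay above sham and below model. Slfn2 and Slfn4, Schlafen genes of immune cells, both rose, at 2.49 ± 0.53 (SE; limma adjusted p = 0.0377) for Slfn2 and 3.90 ± 0.81 (SE; limma adjusted p = 0.0357) for Slfn4 on the log2 scale. The calls of Slfn2 and Slfn4 held in 3 of the 9 fits without 1 library each. Both were lost without model 1, astaxanthin 3 or any sham library, Slfn2 also without astaxanthin 2, and Slfn4 also without model 3 and with only the 6 libraries compared. Those of Ifitm1 and Ifitm3 held in 6 of 9 each, and were lost without any one of the sham libraries. In all 4 genes model 3, which also held the most neutrophil and endothelial RNA, was the highest library, and the part of those cells was not tested.

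The transcript table held 70 transcripts of the members, of which 55 were tested and 0 were called in each comparison. The shares called among all transcripts were 0.689% in model against sham, 0.0518% in astaxanthin against model and 0.204% in astaxanthin against sham. In 20 members the table held a single transcript, among them Irf1 and the Cxcr3 ligands. Where a member had more, the reads were often divided very differently between libraries of 1 group. The transcript Stat2-202 had 2820.0, 3798 and 846 normalized reads in astaxanthin 1, 2 and 3, 2642, 3301 and 46.6 in model 1, 3 and 4, and 0, 139.8 and 994 in sham 1, 3 and 5. The transcript Stat2-201 had 2160.4, 427 and 1882 normalized reads in astaxanthin 1, 2 and 3, 328, 322 and 3363 in model 1, 3 and 4, and 2057, 2031 and 1332 in sham 1, 3 and 5. Gene sums of Stat2 were far steadier than either transcript, so the sums are described here. Nearly all reads of Ifi27 were given to a transcript annotated from 122590504 to 122779294 on chromosome 6 (rn7), with 7 exons.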

How the data were processed

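Per the submitters' processing notes, reads were processed with FastQC, STAR, StringTie and DESeq2 on genome build rn7, with no version or setting stated. The gene and transcript tables the authors deposited hold signal values (reads normalized per library), and since 100% of entries divided, to within 0.01, into whole numbers by a library's unit step, whole reads were recovered for DESeq2 1.42.0 and edgeR 4.0.16 as alternatives. The main test was limma 3.58.1 (R 4.3.3) on log2(value + 1) with moderated variances (trend, robust), fitted on the 9 libraries jointly by group, two-sided, with Benjamini-Hochberg adjustment over the 17770 genes that reached 0.5 in 3 or more libraries; a gene was called at an adjusted p under 0.05. The scripts were tested on simulated data. Fold changes are differences of group means on this log2 scale. For low genes they depend on the pseudocount and can lie above or below the ratio of mean values. Levels are normalized reads with SD over 3 libraries. A count of 0 allows up to 3 reads, for counting error only.

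The members, the pathway and marker lists and the tests were chosen with earlier results of these data known. Members given with values in every library were those past the threshold, the highest and the smallest p in each role group, the Cxcr3 ligands, Irf1, Irf7, Stat2, Isg15 and Mx1; Zbp1, Irf9, Ifit3, Rsad2, Isg20, Bst2 and Gbp5 were added after their values were seen. Pathway genes named were those past the threshold and a set named whatever their values. Of the listed genes, 10 pathway genes and 3 marker genes were not found by symbol and are not analysed here. Depth was 52268061 to 76311125 reads per library. Alternatives were other pseudocounts and filters, median-of-ratios scaling, DESeq2, edgeR, only the 6 libraries compared, a replicate block and leaving out libraries. Promoters came from RefSeq by symbol.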

Additional observations from a re-analysis of the deposited data

How the results depend on the processing

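Of the summaries, the members' median log2 fold change kept its sign under every alternative in model against sham (0.75 to 1.46 without 1 library) and in astaxanthin against sham (0.29 to 0.65). In astaxanthin against model it ranged from -1.13 to -0.24 without 1 library and was 0.025 without astaxanthin 1 and model 3, the cause of which was not tested. Genes called in model against sham were 2943 with DESeq2, 2710 without astaxanthin 1 and model 3 and 0 with a replicate block; without 1 library they were 72 to 1608. Members called there were 16, 7 and 0 under the same settings and 0 to 6 without 1 library. In astaxanthin against model DESeq2 called 204 genes, and 0 to 3 were called without 1 library. In astaxanthin against sham 49 genes became 75 with a pseudocount of 0.1, 19 with a pseudocount of 5, 0 with edgeR, 781 with DESeq2, 4 with only the 6 libraries compared, 0 with the replicate block, 713 without astaxanthin 1 and model 3, and 1 to 149 without 1 library; members called were 4 with DESeq2, 5 without both libraries and 0 to 1 without 1 library. Member transcripts called were 1 (Irf1) in model against sham with a pseudocount of 0.1 or a filter of 10, and 0 to 1 without 1 library, also in astaxanthin against sham. Same-numbered libraries did not deviate together (correlations of -0.12 to 0.07), so the replicate block rests on numbers alone and not on pairs. Of the values of the 156 single-gene results under the alternatives, 2836 stayed on their side of the threshold, 51 newly passed it and 63 no longer did, no called value changed sign, and 106 uncalled values did. The longer motif gave 10 promoters, by its construction fewer. Depth limits Zbp1, Oas2, Cxcl9 and Cxcl11 most. With 3 libraries a group, a p that misses the threshold does not show that values did not differ.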
